A study of Homo sapiens with 4 samples.

Results

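NCI-H1048 cells that had received a guide RNA (gRNA) against POU2F3 were compared with cells that had received a non-targeting gRNA, over every gene that passed an expression minimum. A guide RNA directs a Cas nuclease to a chosen gene, and the labels give the genotype of the first library as POU2F3 knockout and of the second as WT. Each side held 1 library. NCI-H1048 is an established line grown from a human small cell lung cancer, and poly(A)-selected RNA of the whole culture was sequenced. The other 2 of the 4 libraries carried COLCA2 gRNA 1 and COLCA2 gRNA 2, are labelled COLCA2 knockout, and are set beside the comparison as values. All 4 libraries came from the same line, had received a guide, and list no drug treatment. Guide positions, the time after guide delivery, and whether the cells were a pool or a clone are not given in the sources used here. After rows of the same symbol were summed, 14940 of 35979 symbols had a mean normalised count of at least 20 over the 4 libraries, and these were the genes compared.

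POU2F3 is a POU-domain (OCT family) transcription factor that binds octamer DNA and specifies tuft cells, the rare chemosensory cells of the airway and gut epithelium that use taste-type signalling. Its activity depends on the coactivators C11orf53 (POU2AF2) and COLCA2 (POU2AF3), which dock on the DNA-bound POU domain. A minority of small cell lung cancers expresses the tuft programme in place of the neuroendocrine programme, and these tumours depend on POU2F3.

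The libraries held 21587741 to 29632382 reads assigned to genes. Since the POU2F3 gRNA and non-targeting groups each held 1 library, the differences below have no replicate check, and no p-value is given. The only spread within a group was that between the COLCA2 guides, where 331 genes (2.22%) lay at least 2-fold apart. Intervals for a fold are 95% exact (Clopper-Pearson) intervals on the reads of both libraries and cover counting error only. Ratios are log2 of the POU2F3 gRNA value plus 1 over the non-targeting value plus 1, so low genes appear to change less than they did. The values of a gene follow the order non-targeting, POU2F3 gRNA, COLCA2 gRNA 1 and COLCA2 gRNA 2. In bulk RNA, fewer cells of a type and less RNA per cell cannot be told apart. S100A11, which most epithelial cells express, was listed at 0, 1.68, 4.15 and 5.88, so a value at or near 0 in these tables does not by itself show that a gene was silent.

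POU2F3 itself (ENSG00000137709, chr11:120236640-120319944, plus strand, GRCh38) had normalised counts of 14602, 1449, 3677 and 2351. It was 10.1-fold lower with its own guide than with the non-targeting guide (interval 9.59 to 10.6), and lowest of the 4 libraries there. A transcript level does not measure how much of the coding sequence was disrupted. The coactivator genes were lower as well. C11orf53 (chr11:111245805-111286401, plus strand) had 1853, 195, 554 and 499, which was 9.51-fold lower with POU2F3 gRNA (interval 8.30 to 10.9). COLCA2 (chr11:111298555-111308735, plus strand) had 5585, 1393, 3119 and 3541, a 4.01-fold lower value (interval 3.79 to 4.24). Its lowest value was therefore in the library with the POU2F3 guide, below both libraries with a guide against COLCA2 itself. COLCA2 overlaps the antisense gene COLCA1, and use of the strand in counting is not given in the sources used here, so this value is uncertain.

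The related OCT genes moved less. POU2F1, the ubiquitous OCT factor, had 1416, 953, 858 and 1014, and POU2AF1, the B cell coactivator, had 90.7, 166, 102 and 81.1. POU2F2, the lymphoid OCT factor, stayed under the minimum at 15.3 in the non-targeting library and 6.71 with POU2F3 gRNA. Of the 6 genes in this family list 5 passed the minimum, 3 were at least 2-fold lower and 0 higher, and the median log2 ratio was -2.002.

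Genes around POU2F3 on chromosome 11 were read as a check of the region. TLCD5, which starts 5185 bp beyond POU2F3, had 587, 212, 233 and 256, a log2 ratio of -1.46. It was lower in all 3 libraries with a targeting guide. On the other side OAF, 6308 bp away, had 545, 481, 532 and 470.4, and TRIM29, a basal-cell gene 51111 bp away, had 18.1, 133, 376 and 421, a log2 ratio of 2.81. ARHGEF12, the next gene past the minimum beyond TLCD5, had 5358, 5777, 4700 and 5627. The 66 genes of chromosome 11 beyond POU2F3 had a median log2 ratio of -0.13, against 0.011 for the 477 genes of the long arm before it. Chromosome medians ran from -0.053 to 0.042, so no whole chromosome stood apart.

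Most genes differed little. The median log2 ratio over all genes was -0.0037, the quartiles were -0.23 and 0.27, and 80.1% of genes lay within 1.5-fold. With POU2F3 gRNA, 455 genes (3.05%) were lower by 2-fold or more and 1005 genes (6.73%) were higher. The same count was 477 lower (3.19%) and 962 higher (6.44%) with COLCA2 gRNA 1, and 544 (3.64%) and 1083 (7.25%) with COLCA2 gRNA 2. Higher genes outnumbered lower ones at larger sizes too: at 4-fold there were 113 lower (0.756%) and 365 higher genes (2.44%), and at 16-fold 21 lower (0.141%) and 46 higher (0.308%). The 455 lower genes held 2.29% of all normalised counts in the non-targeting library and 0.716% with POU2F3 gRNA, and the 1005 higher genes held 1.90% and 5.79%. These same sets held 0.891% and 5.43% with COLCA2 gRNA 1 and 0.788% and 5.94% with COLCA2 gRNA 2. All 3 comparisons share the non-targeting library as control.

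**Figure D1:**
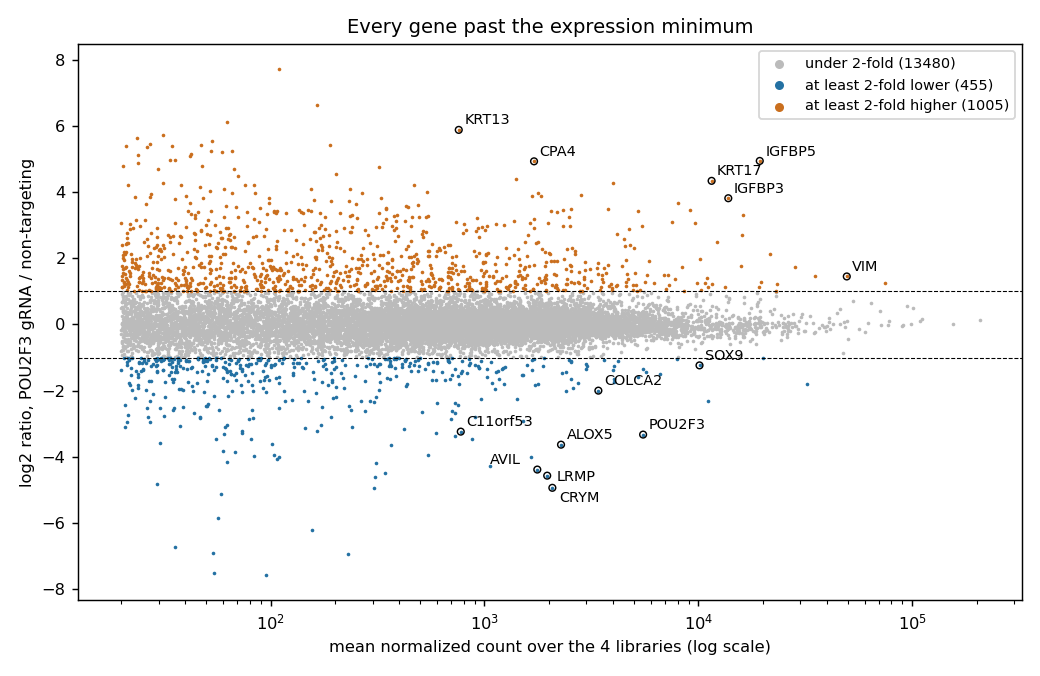
Each dot is 1 of the 14940 genes, with its mean normalised count over the 4 libraries on the log x axis and its log2 ratio of POU2F3 gRNA to non-targeting on the y axis; dashed lines mark 2-fold. The 455 lower genes include POU2F3 and its coactivators, and the 1005 higher genes reach into the most abundant transcripts with VIM and IGFBP5.

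The 2-fold counts depended on level. Among the 2781 genes with a mean of 20 to under 100, 7.98% were lower, 13.4% were higher, and 9.96% lay at least 2-fold apart between the COLCA2 guides. Among the 5908 genes with a mean of at least 1000, 59 (0.999%) were lower and 223 (3.77%) were higher, while 0 lay that far apart between the COLCA2 guides, whose largest difference was 0.98 on the log2 scale. The well-expressed genes thus carried 2-fold differences that the guide pair did not show. Just inside the minimum, 174 genes with a mean of 20 to 22 held 13 lower and 41 higher genes. Just outside it, 183 genes with a mean of 18 to 20 held 14 lower and 28 higher.

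**Figure D2:**
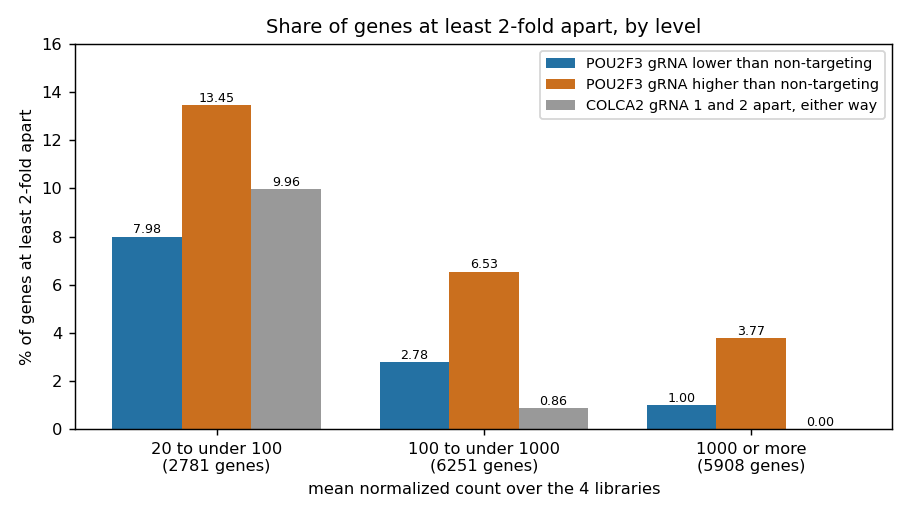
Bars give the percentage of genes at least 2-fold apart in 3 ranges of mean normalised count, for POU2F3 gRNA lower (blue) or higher (orange) than non-targeting and for the COLCA2 guides against each other (grey); the bars have no error because each side is 1 library. The grey bar drops from 9.96% to 0 while the orange bar remains at 3.77% in the highest range.

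The 15 genes furthest below the non-targeting library had varied roles, and several are known markers of tuft or taste cells. CRYM (chr16:21238874-21303083), which encodes the thyroid hormone-binding protein mu-crystallin, had 6126, 198, 1121 and 866, a 30.9-fold lower value with POU2F3 gRNA (interval 27.2 to 35.4). LRMP (chr12:25004342-25108334), an endoplasmic reticulum protein of taste and tuft cells, had 6229, 260.2, 809.7 and 562 and was 23.9-fold lower (interval 21.4 to 26.9). AVIL (chr12:57797376-57818704), the actin-bundling protein advillin and a tuft cell marker, had 5093, 242, 990.1 and 742 and was 21.1-fold lower (interval 18.7 to 23.8). In each of these 3 genes the POU2F3 gRNA library was lowest, the non-targeting library highest, and the COLCA2 libraries in between.

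With entries of 0 set to 3 reads, AMY2A and AMY1C gave the largest ratios on the lower side. AMY2A (chr1:103616811-103625780), a pancreatic amylase gene, had 642, 4.20, 152 and 121, and AMY1C, a salivary amylase gene of the same cluster, had 447, 5.04, 101 and 75.3. AMY2A was 153-fold lower with POU2F3 gRNA (interval 65.2 to 472). The members of this cluster are near-identical copies whose reads can be split between them, so the value of a single copy is uncertain. AMY2B, the third cluster member past the minimum, had 675, 134, 191 and 162. The class I alcohol dehydrogenase genes were low too: ADH1C had 106.0, 0, 18.7 and 17.6, which is at least 42.1-fold lower when the POU2F3 gRNA library is set to 3 reads, and ADH1B had 135, 12.6, 42.5 and 51.7. Of the 8 genes of the amylase and alcohol dehydrogenase list 5 passed the minimum and all 5 were at least 2-fold lower. Their median log2 ratio was -6.21, or -5.40 with ADH1C at its bound. This list was written when earlier results of these data were known. AMY2A, AMY1C and ADH1C are themselves among the genes furthest below, so its count and median restate that choice.

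Regulators of G protein signalling formed another pair. RGS21 (chr1:192316992-192367285), which is expressed in taste cells, had 910.0, 36.1, 178 and 112 and was 25.2-fold lower with POU2F3 gRNA (interval 18.6 to 35.1). RGS13 (chr1:192636138-192660306), a tuft cell marker that lies further along the same stretch of chromosome 1, had 2518, 128, 879 and 720 and was 19.6-fold lower (interval 16.6 to 23.2). Their positions on chromosome 1 are close, and both were lowest in the POU2F3 gRNA library. HEPACAM2, an immunoglobulin-family adhesion protein, had 918, 28.5, 176 and 98.8, a 32.2-fold lower value. PSD2, an exchange factor for ARF GTPases, had 1094, 47.8, 136 and 85.9.

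Low-count genes completed the 15 furthest below. FGF12, an intracellular FGF homologue that binds sodium channels, had 201, 2.52, 19.7 and 2.35, and its 80.02-fold lower value rests on 3 reads in the POU2F3 gRNA library (interval 27.0 to 391). APELA, a peptide ligand of the apelin receptor, had 181, 4.20, 13.5 and 35.3, and MORC1, a germ line ATPase, had 167, 8.39, 34.2 and 40.0. MPP7, a polarity scaffold, had 181, 0, 35.2 and 0, and AMMECR1L had 190.0, 0, 14.5 and 176. AMMECR1L was thus listed at 0 with POU2F3 gRNA, differed widely between the COLCA2 guides, and was near the non-targeting level with gRNA 2. Whether the entries of 0 for these genes are complete estimates was not tested, and no fold is given for them. Of the 15 genes, 13 were below both COLCA2 libraries with POU2F3 gRNA. The genes were ranked on the POU2F3 gRNA library, which favours that order.

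**Figure D3:**
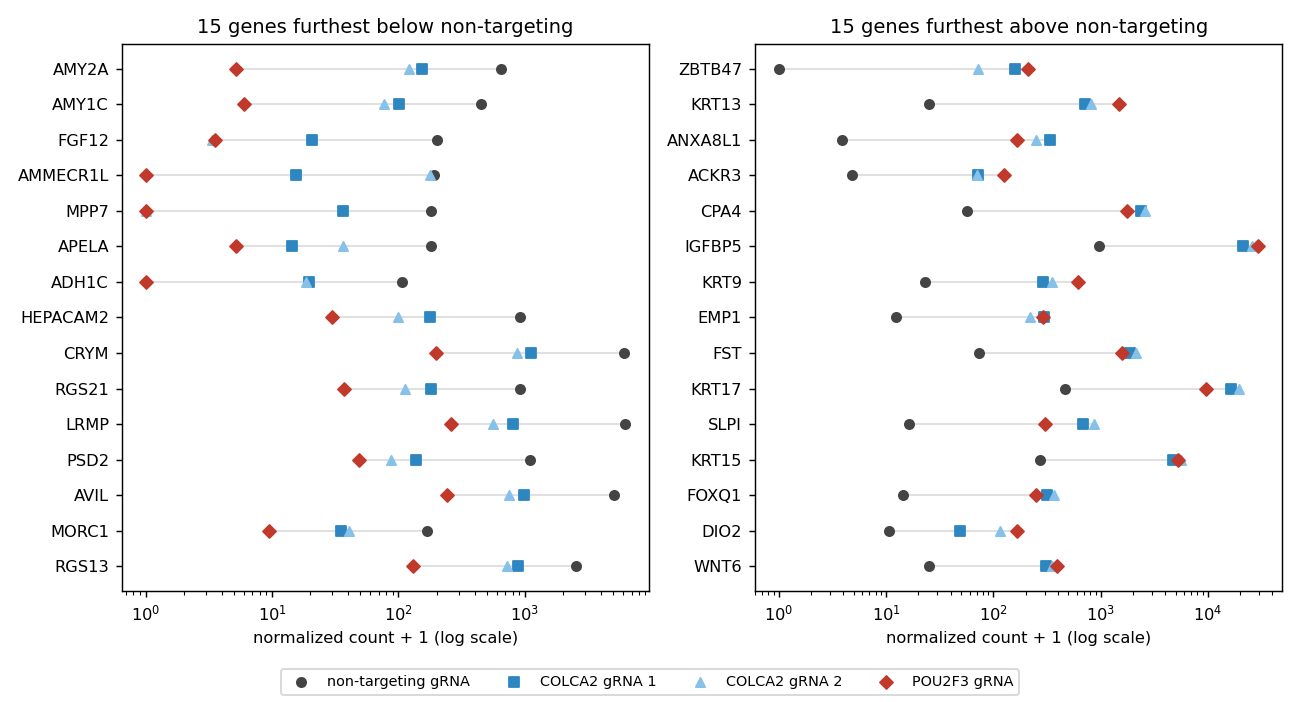
Points give the normalised count plus 1 on a log axis in each of the 4 libraries for the 15 genes furthest below (left) and the 15 furthest above (right) the non-targeting library. On the left the POU2F3 gRNA library lies below both COLCA2 libraries in 13 genes, and on the right it lies above both in 7 and below both in 6.

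Octamer sequences were searched in promoters because POU2F3 binds them. The motif was ATGCAAAT on either strand, in RefSeq windows of 250 bases before to 50 bases after a gene start (GRCh38.p14), with no other motif searched. Of all 35116 windows tabulated, 1.77% held it. Windows were found for 77.1% of the genes past the minimum and for 71.2% of the lower genes, under the 80% needed, so a comparison of shares between these sets is void. As counts, 17 of the 324 lower genes with a window held the motif, as did 16 of 708 higher genes and 229 of 11516 genes past the minimum. At 4-fold it was 7 of 81 lower and 6 of 246 higher genes.

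The 7 windows of genes at least 4-fold lower that held the octamer are shown as 80 bases of their gene strand, 5′ to 3′, with the octamer in capitals, to let its surroundings be read. They belong to FGF12 (chr3:192727544-192727623, minus strand), BMX (chrX:15507228-15507307, plus), HTR3E (chr3:184100001-184100080, plus), SUCNR1 (chr3:151873547-151873626, plus), CORO2B (chr15:68518289-68518368, plus), NRG3 (chr10:81875160-81875239, plus) and SPRR2A (chr1:153057579-153057658, minus).
FGF12: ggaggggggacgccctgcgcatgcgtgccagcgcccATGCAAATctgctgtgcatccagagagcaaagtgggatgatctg
BMX: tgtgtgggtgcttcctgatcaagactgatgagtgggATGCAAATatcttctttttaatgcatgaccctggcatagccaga
HTR3E: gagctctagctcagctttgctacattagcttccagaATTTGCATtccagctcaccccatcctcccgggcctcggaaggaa
SUCNR1: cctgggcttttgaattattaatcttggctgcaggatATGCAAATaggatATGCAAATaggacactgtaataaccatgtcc
CORO2B: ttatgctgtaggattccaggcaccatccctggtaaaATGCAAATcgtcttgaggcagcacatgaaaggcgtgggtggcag
NRG3: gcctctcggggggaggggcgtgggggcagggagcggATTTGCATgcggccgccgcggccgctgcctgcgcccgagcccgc
SPRR2A: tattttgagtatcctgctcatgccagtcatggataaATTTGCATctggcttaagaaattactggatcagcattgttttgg
A gene can have several windows, and it counted as holding the motif if any of them did. Each window shown was picked because it held the motif. Those of BMX and FGF12 belong to starts inside the gene, which spans chrX:15464246-15556529 for BMX and chr3:192139395-192767764 for FGF12. In FGF12, BMX, CORO2B and SUCNR1 the motif lay 46, 44, 48 and, for its pair of copies, 60 and 47 bases before the start of the window's transcript. In HTR3E, NRG3 and SPRR2A it read on the opposite strand, 142, 118 and 110 bases before the start. A match is a description of the letters and not of binding.

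The 7 genes have different roles. SUCNR1, the succinate receptor that tuft cells use to sense microbes, had 206, 17.6, 64.3 and 35.3, a log2 ratio of -3.48. HTR3E, a serotonin receptor subunit, had 91.7, 6.71, 10.4 and 12.9, and CORO2B, an actin-binding coronin, had 95.5, 12.6, 43.5 and 35.3. NRG3, a ligand of ERBB4, had 429.7, 92.3, 149 and 141, and SPRR2A, a cornified envelope protein with near-identical family copies, had 106.0, 25.2, 42.5 and 22.3. All were lower in the 3 libraries with a targeting guide than in the non-targeting library.

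The tuft programme was examined by role, with lists written when earlier results of these data were known. Over all genes 3.05% were lower and 6.73% higher, and 7.98% and 13.4% among genes with a mean of 20 to under 100. Counts for a list are to be read beside these shares. A gene that passes the minimum only through the library where it is high must differ, so counts over these lists describe them and test nothing. Of 10 tuft lineage regulators 9 passed the minimum, 6 were at least 2-fold lower and 2 higher. GFI1B (chr9:132944000-132991687), a zinc finger repressor of the tuft lineage, had 1899, 181, 520 and 315, which was 10.5-fold lower with POU2F3 gRNA (interval 9.10 to 12.1). SOX9, a progenitor and tuft factor, had 17848, 7566, 8463 and 6645, a 2.36-fold lower value. HMX3 had 4917, 2153, 2656 and 2227, HMX2 had 1684, 712, 749 and 606, and ASCL2, an intestinal stem cell factor, had 458, 191, 228 and 242. These last 4 factors stood at near-equal levels in all 3 libraries with a targeting guide, whereas GFI1B was lowest with POU2F3 gRNA. In the opposite direction, RUNX1 had 891, 2301, 2259 and 2324 and IKZF2 had 70.7, 191, 193 and 162.

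Taste-type signalling runs from receptors through gustducin, phospholipase C and the inositol trisphosphate receptor to the TRPM5 channel. Of 12 genes 9 passed, 5 were at least 2-fold lower and 0 higher, with a median log2 ratio of -1.21. Apart from LRMP and RGS13, the lower genes were GNAT3, the gustducin alpha subunit, with 159, 38.6, 73.6 and 58.8, RGS2 with 1725, 672, 834 and 883, and PLCG2 with 604, 261, 338 and 450. The abundant receptor ITPR3 had 8595, 6960, 6805 and 6224 and did not reach 2-fold. Its relative ITPR2 went the other way, with 727, 1413, 929 and 1586, a log2 ratio of 0.96 that also fell short of 2-fold. The defining channel TRPM5 was near 0 in every library, at 1.91, 0.839, 2.07 and 2.35, and GNG13, the gustducin gamma subunit, was at 6.68 and 1.68. These members were therefore not measured at a level where a difference could be read, with the limit on values near 0 given above.

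Tuft cells also make eicosanoids. ALOX5, the lipoxygenase that starts leukotriene synthesis, had 6311, 506, 1261 and 1046 over its summed rows and was 12.5-fold lower with POU2F3 gRNA (interval 11.5 to 13.6). PLA2G4A, the phospholipase that releases arachidonic acid, had 3497, 462, 1189 and 880 and was 7.56-fold lower (interval 6.91 to 8.28). The enzymes downstream did not follow: LTC4S, the leukotriene C4 synthase, had 27.7, 31.1, 36.3 and 41.2, PTGS2 had 250.2, 177, 202 and 248, and PTGES, a prostaglandin E synthase, had 30.6, 82.3, 137 and 127. ALOX5AP, HPGDS and IL25 stayed under the minimum. Of the 10 genes 5 passed, with 2 lower and 1 higher.

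Among tuft cytoskeletal genes the difference was narrow. Beside AVIL, ESPN, an actin bundler of stereocilia and microvilli, had 265, 117, 81.9 and 77.6. Fascin (FSCN1) had 5050, 4888, 4484 and 4163 and plastin 1 (PLS1) had 779, 798, 892 and 920, so other actin bundlers stayed close to the control. KRT18, a keratin of simple epithelia, was higher, with 4820, 11207, 14242 and 16181. Of 10 genes 8 passed, 2 were lower, 1 was higher and the median log2 ratio was -0.01.

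Kinases and surface proteins of tuft cells split in a similar way. BMX (chrX:15464246-15556529), a TEC family tyrosine kinase, had 771, 41.1, 273 and 162 and was 18.7-fold lower with POU2F3 gRNA (interval 14.04 to 25.5). SH2D6, an SH2-domain adaptor, had 172, 10.9, 54.9 and 35.3. Both were several-fold below either COLCA2 library with POU2F3 gRNA. KIT, the stem cell factor receptor, had 3084, 1515, 1527 and 1505, 2.04-fold lower with POU2F3 gRNA and almost the same in all 3 targeted libraries. DCLK1, a widely used tuft marker in mice, had 332, 246, 150 and 160, and CD24, a surface glycoprotein, had 6082, 20658, 16750 and 19707. Of the 14 genes, all past the minimum, 5 were lower and 2 higher.

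**Figure D4:**
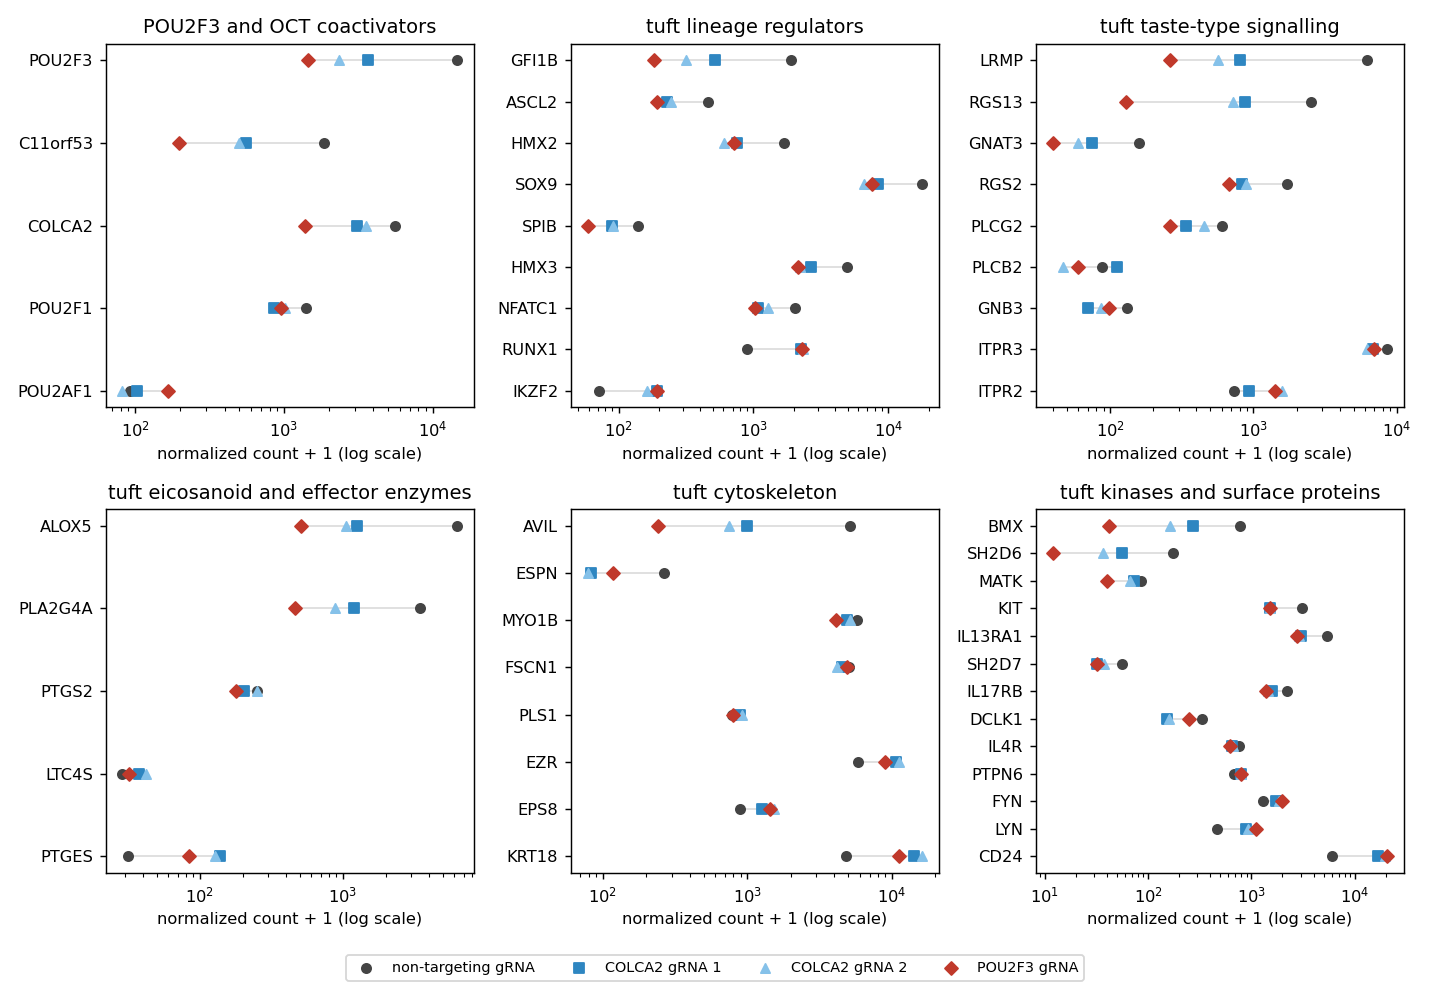
Points give the normalised count plus 1 on a log axis in each of the 4 libraries for members past the minimum of the OCT list and the 5 tuft lists. POU2F3, C11orf53, COLCA2, GFI1B, LRMP, RGS13, ALOX5, AVIL and BMX are lowest with POU2F3 gRNA, while ITPR3, FSCN1 and PTPN6 differ little.

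Other airway lineages were represented thinly. Of 8 ionocyte genes 3 passed the minimum, 1 was at least 2-fold lower and 0 higher. FOXI1, the ionocyte transcription factor, had 1721, 332, 498 and 360 and was 5.19-fold lower with POU2F3 gRNA (interval 4.65 to 5.80). ATP6V1C2, with 150, 86.5, 71.5 and 127, and TFCP2L1, with 705, 562, 638 and 608, stayed under 2-fold with POU2F3 gRNA. The means of the ionocyte markers CFTR, BSND and ASCL3 were under the minimum. NEUROD1, a driver of the neuroendocrine programme, was near 0 in both libraries, with 2.86, 2.52, 7.26 and 12.9. Of 20 neuroendocrine genes 11 passed, 1 was lower and 2 were higher, with a median log2 ratio of -0.50. Over all genes 3.05% were lower and 6.73% higher. The higher members were BEX1, an adaptor expressed in neurons, with 180.5, 767, 563 and 673, the largest ratio of the list, and SYT1, a synaptic vesicle calcium sensor, with 5.73, 21.0, 27.0 and 29.4. SYT1 passed the minimum at a mean of 20.8, only through the libraries where it was high. Its place among the higher members was therefore largely set by that rule. INSM1, a neuroendocrine zinc finger factor, had 118, 35.3, 23.8 and 24.7, and UCHL1, a neuronal deubiquitinase that was already abundant, had 20599, 14543, 17993 and 16656. With SYT1 left aside, the list held BEX1 as higher and INSM1 as lower.

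Some of the most abundant lower genes lay outside these lists, and the following were chosen after their values were seen, as the largest differences among genes with a mean of at least 1000. ENPP2, the secreted enzyme autotaxin that makes lysophosphatidic acid, had 4607, 285, 849 and 867, a log2 ratio of -4.01. DPYSL3, a cytoskeletal protein of neurons, had 27253, 5509, 6334 and 5502, and BMP2, a bone morphogenetic protein ligand, had 4892, 1301, 2228 and 1962. PROX1, a homeobox factor, had 2383, 610.2, 826 and 655, VCAM1, a leukocyte adhesion molecule, had 2564, 532, 1265 and 1323, and STC1, a secreted stanniocalcin, had 4685, 1171, 2019 and 1716. EGFR, from the receptor family list, had 6803, 2615, 3370 and 3155, a log2 ratio of -1.38, while its relative ERBB2 had 1093, 2501, 2448 and 2634.

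The 15 genes furthest above the non-targeting library included 4 keratins. KRT13 (chr17:41500981-41505705), a keratin of stratified mucosa, had 23.9, 1475, 719.5 and 815 and was 61.8-fold higher with POU2F3 gRNA (interval 41.7 to 95.7). IGFBP5 (chr2:216672105-216695525), a secreted binder of insulin-like growth factors, had 957, 29620, 21198 and 25747 and was 31.0-fold higher (interval 29.1 to 33.0). KRT17 (chr17:41619441-41624842) and KRT15 (chr17:41513743-41522529), basal-cell keratins of the same type I cluster as KRT13, had 467, 9530, 16567 and 19594 and 269, 5264, 4695 and 5658. Each was about as far from the control in the COLCA2 libraries as with POU2F3 gRNA, or further in the case of KRT17. CPA4, a carboxypeptidase, had 56.3, 1758, 2390 and 2619, and FST, the activin antagonist follistatin, had 72.6, 1565, 1875 and 2129.

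The others of the 15 had lower counts. EMP1, an epithelial membrane protein, had 11.5, 290.4, 293 and 218, FOXQ1, a forkhead factor, had 13.4, 247, 316 and 368, and SLPI, a secreted protease inhibitor, had 15.3, 302, 687 and 871. ACKR3, an atypical chemokine receptor, had 3.82, 126, 70.5 and 69.4, DIO2, which activates thyroid hormone, had 9.55, 166, 47.7 and 114, and the ligand WNT6 had 23.9, 390.3, 307 and 348. KRT9, a keratin of palm and sole skin, had 21.96, 619, 291 and 350.5, and ANXA8L1, a near-identical copy of ANXA8, had 2.86, 166, 336 and 250.5, where 3 reads in the non-targeting library leave an interval of 19.6 to 284 around a 58.0-fold higher value. ZBTB47, a zinc finger gene, had 0, 211, 159 and 70.6, and no fold is given, since whether its entry of 0 in the non-targeting library is a complete estimate was not tested. Of the 15 genes 7 were above and 6 below both COLCA2 libraries with POU2F3 gRNA.

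Basal and squamous genes held the largest ratio of any list on the higher side, that of KRT13. Of 22 genes 17 passed the minimum, 12 were at least 2-fold higher and 0 lower, and the median log2 ratio was 2.03 with POU2F3 gRNA, against 3.22 and 3.72 in the COLCA2 libraries. Over all genes 6.73% were higher and 3.05% lower, and 13.4% and 7.98% among genes with a mean of 20 to under 100. Counts for this list and those in the following paragraphs are to be read beside these shares. A gene that passes the minimum only through libraries where it is high must differ, so these counts describe the lists and test nothing. TP63, the basal-cell master regulator, had 38.2, 159, 188 and 265. The keratin gene KRT5 had 95.5, 1024, 3558 and 4079, KRT16 had 32.5, 316, 888 and 906, and KRT6A had 29.6, 132, 534 and 646. In TP63 and these keratin genes the POU2F3 gRNA library lay between the non-targeting and the COLCA2 libraries. KRT13 was instead highest with POU2F3 gRNA, as were KRT14 with 4.77, 99.0, 52.9 and 85.9 and SOX2 with 142, 378, 156 and 151. The late cornification genes of this list (IVL, SPRR1A, SPRR1B) stayed under the minimum. SPRR2A, the cornified envelope gene named above and not in this list, was lower, with 106.0, 25.2, 42.5 and 22.3. Calcium-binding S100 proteins, many from the epidermal differentiation cluster, followed the same order: 10 of the 11 past the minimum were higher, with a median of 2.66 against 3.88 and 4.14. S100A9 had 26.7, 211, 585 and 720, S100A2 had 43.9, 316, 809.7 and 888, and S100A6 had 34.4, 341, 518 and 622. Whether low entries in this family, such as that of S100A11, are complete estimates was not tested.

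The YAP and TEAD list holds the regulators YAP1, WWTR1 and TEAD1 to TEAD4 beside target genes, which respond to the Hippo pathway and to cell spreading. All members were past the minimum, and 10 of 17 were higher and 0 lower, with a median of 1.36. Over all genes the shares were 6.73% higher and 3.05% lower. YAP1 and WWTR1 were among the higher ones. YAP1 (chr11:102110461-102233423), a coactivator that many small cell lung cancers silence, had 776, 3612, 2795 and 3475 and was 4.65-fold higher with POU2F3 gRNA (interval 4.31 to 5.02). Its classic targets CCN2 and CCN1 had 1159, 12891, 10015 and 12567 and 3202, 20909, 18378 and 21551, and ANKRD1 had 102, 1520, 2453 and 2584. The TEAD factors themselves stayed under 2-fold, with TEAD1 at 2225, 3994, 3329 and 4030, a log2 ratio of 0.84, and TEAD4 at 1140, 1240, 1485 and 1307. Of the AP-1 list 11 of 12 passed and 6 were higher with 0 lower: FOSL2 had 779, 5814, 6014 and 6447 and FOSL1 had 29.6, 219.9, 424 and 430.4, while JUN had 3241, 2905, 2373 and 2557.

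Some genes of the contractile cytoskeleton and of adhesion to matrix were higher in the same library. Of 16 actomyosin and caveola genes, all past the minimum, 10 were higher and 0 lower, with a median of 1.35. Among all genes 6.73% were higher and 3.05% lower. TAGLN, a smooth muscle actin binder, had 108, 1614, 2742 and 2897, CAV1, the caveola coat protein, had 33.4, 264, 434 and 510.4, and the abundant filamin FLNA had 39793, 62072, 77528 and 78382. Of 17 integrin and laminin chains 6 were higher and 0 lower. LAMB3, a laminin beta chain of epithelial basement membrane, had 137, 1151, 2474 and 2753, whereas the alpha chain gene LAMA3 had 1784, 1706, 1382 and 1287. ITGB6, an epithelial integrin of injured tissue, had 48.7, 248, 374 and 414.

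Mesenchymal and epithelial genes did not move as opposites. Of 16 mesenchymal genes 13 passed, 7 were higher and 0 lower, with a median of 1.14. The all-gene shares were 6.73% higher and 3.05% lower. VIM, vimentin, had 29301, 80266, 45314 and 42972, CD44 had 365, 2885, 3327 and 3509, and SNAI2 had 173, 534, 421 and 426, while TWIST1 had 4114, 2222, 2396 and 2249. Of 17 epithelial adhesion genes, all past the minimum, 3 were higher and 1 lower, with a median of -0.17. CDH1, E-cadherin, had 747, 2126, 2351 and 2537 and CLDN4, a tight junction claudin, had 296, 2354, 3121 and 3588, while EPCAM had 3986, 2463, 2945 and 3408. The POU2F3 gRNA library therefore held more of both vimentin and E-cadherin transcript.

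Secreted proteases and their inhibitors came next, with counts to be read beside all-gene shares of 6.73% higher and 3.05% lower. Of 9 plasminogen activation genes 6 were higher and 0 lower, with a median of 1.75: PLAU, urokinase, had 342, 3829, 5055 and 5901, and the urokinase receptor gene PLAUR had 487, 327, 333 and 345. Clade B serpins, intracellular protease inhibitors of squamous epithelium, had 4 of 9 members higher. SERPINB2 had 8.59, 135, 501 and 662, and SERPINB7 had 0, 36.9, 96.4 and 132, at least 12.9-fold higher. Annexins split by member. ANXA2 had 9353, 31365, 34822 and 37577 and ANXA8 had 24.8, 288, 561 and 519, but ANXA1 had 64178, 35252, 46206 and 44942 and ANXA4 had 2998, 1255, 1585 and 1710. ANXA4 was the only annexin at least 2-fold lower, with 4 of 10 higher.

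Growth factor axes contained large single differences. Their counts stand beside 6.73% of all genes higher and 3.05% lower. Besides IGFBP5, IGFBP3 had 1177, 16663, 16666 and 20738, IGFBP7 had 780.2, 6207, 7261 and 7604, and the adaptor IRS2 had 565, 2820, 3144 and 3708. The receptor genes changed less: IGF1R had 138, 292, 416 and 477, and INSR had 1066, 999, 1015 and 976. In the IGF list 6 of 13 were higher and 0 lower. In the TGF-beta and BMP list 9 of 19 were higher and 1, BMP2, lower: INHBA, the activin A subunit, had 38.2, 390.3, 514 and 623, TGFB2 had 46.8, 367, 459 and 457, and TGFBR2, the type II receptor, had 32.5, 205, 176 and 265. Transcripts of an activin subunit and of its antagonist follistatin were thus both higher with POU2F3 gRNA. Of 20 chemokine and interleukin genes 14 passed, 8 were higher and 1 lower, at modest counts: CXCL8 had 30.6, 237, 272 and 343, LIF had 147, 1202, 1717 and 1853, and IL32 had 48.7, 393, 701 and 681. TSLP, an epithelial cytokine, was the lower one, with 58.3, 23.5, 20.7 and 35.3.

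**Figure D5:**
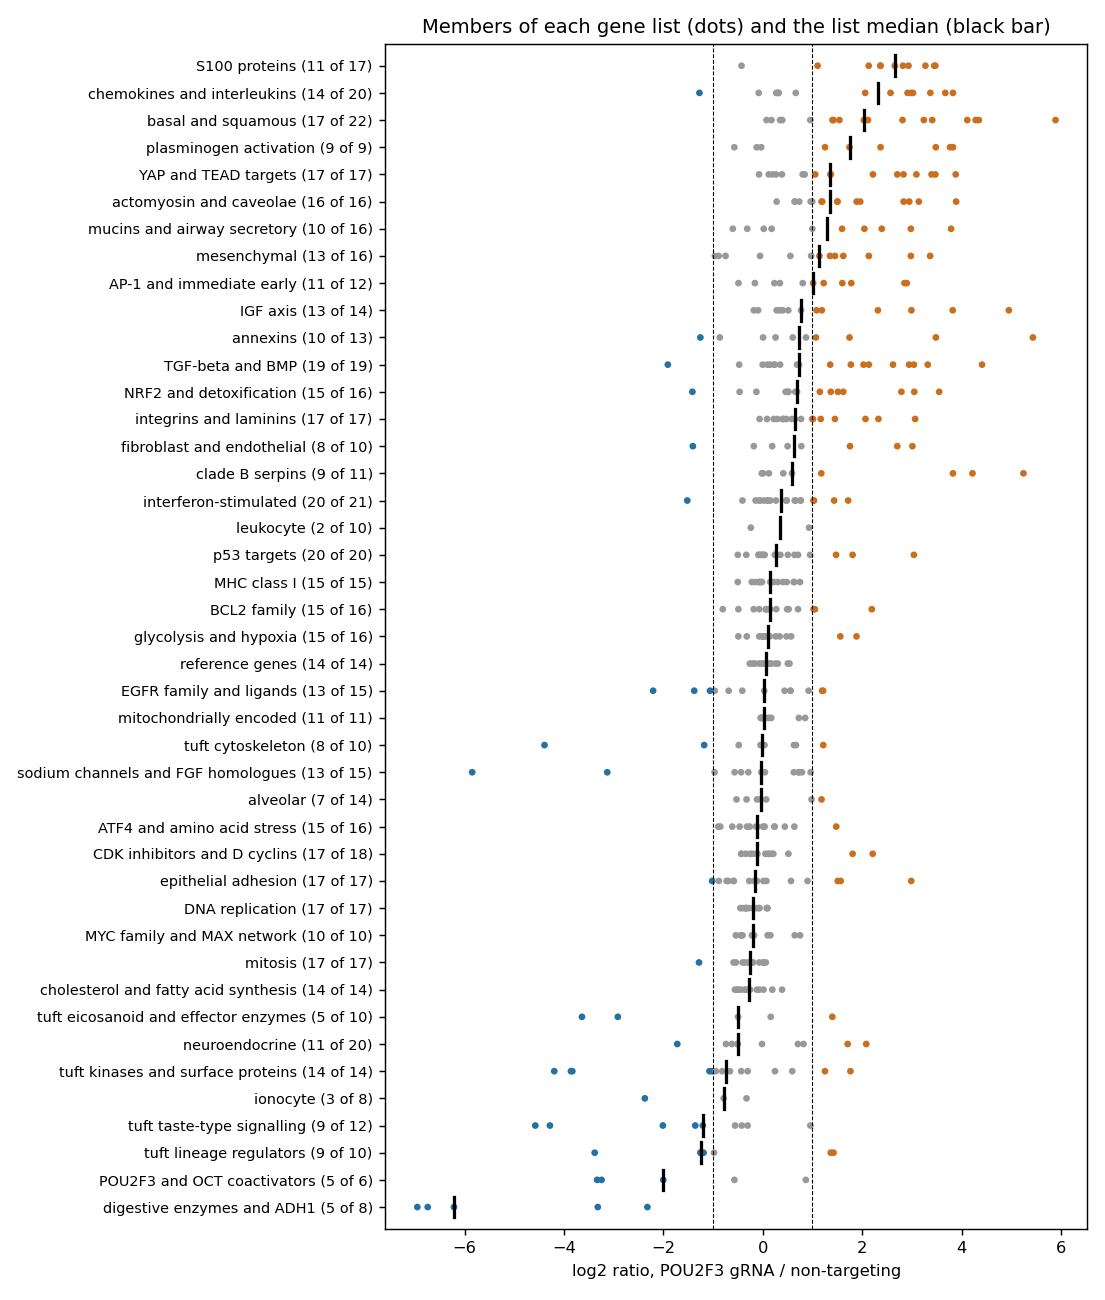
Each dot is a member past the minimum with its log2 ratio of POU2F3 gRNA to non-targeting on the x axis, lists are ordered by their median (black bar), and dashed lines mark 2-fold; numbers in brackets give members past the minimum of all members. Medians run from 2.66 for S100 proteins to -6.21 for the amylase and alcohol dehydrogenase genes, with proliferation and housekeeping lists near 0. The lists were chosen with earlier results of these data known, so the order of their medians is a description only.

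Proliferation genes stayed close to the control. Of 17 DNA replication genes 0 were lower or higher by 2-fold and the median was -0.20. Of 17 mitosis genes 1 was lower, the kinetochore motor CENPE with 2050, 842, 1036 and 1069, and the median was -0.27. MKI67, the proliferation antigen, had 17986, 15334, 14830 and 13398. MYC, expressed at 8152, 6148, 5952 and 5188, and the other 9 genes of its network all lay within 2-fold. The inhibitor genes CDKN1A, with 1166, 4083, 4718 and 5184, and CDKN2B, with 215, 999, 1078 and 1267, were the 2 higher members of 17 in the cell cycle inhibitor and cyclin list. Of 20 p53 targets 3 were higher and 0 lower, CDKN1A among them together with FAS and GDF15, while MDM2 had 2997, 3556, 4180 and 4826. The shares over all genes were 6.73% higher and 3.05% lower, so these small counts describe the lists only.

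Survival genes of the BCL2 family were mostly flat, with 3 of 15 higher and 0 lower. BMF, a pro-apoptotic BH3-only gene, had 747, 3419, 1614 and 1911 and was furthest from the control. The anti-apoptotic MCL1 had 6491, 13441, 10276 and 11161 and BCL2L1 had 1454, 2956, 3469 and 3535, whereas BCL2 had 1971, 1128, 988 and 983. MHC class I genes (15), cholesterol and fatty acid synthesis genes (14), mitochondrially encoded genes (11) and reference genes (14) held 0 members at least 2-fold apart, with medians of 0.15, -0.29, 0.02 and 0.07. Interferon-stimulated genes had 4 higher and 1 lower member of 20, with IFITM1 at 251, 828, 771 and 890 and IFIT2 at 141, 48.7, 80.9 and 32.9. Across all genes 6.73% were higher and 3.05% lower, so the small counts in these lists are descriptions only.

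Several genes stood apart between the POU2F3 gRNA library and the libraries of the COLCA2 guides, and were chosen after their values were seen. VIM and BMF were both higher with POU2F3 gRNA than with either COLCA2 guide. SOX2, a stem cell and squamous factor, had 142, 378, 156 and 151, so its level in the COLCA2 libraries was close to the non-targeting one. MGP, a matrix protein, had 427, 4840, 2264 and 2619. In the other direction KRT5, SERPINB2 and TRIM29 were highest with the COLCA2 guides. With 1 library against 2, these differences could not be tested.

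Markers of other cell types were checked, as bulk RNA could hold them. Of 10 leukocyte markers 2 passed the minimum and neither was 2-fold apart, CD3E and CD3D were at 0 in every library, and their summed level was 171, 243, 304 and 287. Of 10 fibroblast and endothelial markers 8 passed, 3 were higher and 1 lower, and their sum was 1457, 1846, 2227 and 1906. Within it COL3A1 had 47.7, 317, 412 and 363 and LUM had 14.3, 123, 233 and 201, while COL1A1 had 1136, 1002, 1186 and 1008. The part of these markers in the mesenchymal differences was not tested. Alveolar markers summed to 2517, 2197, 2231 and 2153, and SFTPC and SFTPD were at or near 0.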

How the data were processed

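Per the labels' protocols, 4 libraries were prepared from poly(A) RNA of NCI-H1048 with a NEBNext Ultra II kit. The deposited files hold normalised counts, per the file headers, which is a linear signal without a log step. Salmon, DESeq2 and hg38 are named in the submitters' processing notes; versions, annotation and use of the strand are not given in the sources used here. In each library 100% of the deposited values were whole multiples of 1 step (within 0.01 reads), so whole reads were recovered, with factors of 1.05 (non-targeting), 1.19 (POU2F3 gRNA), 0.965 and 0.850 (COLCA2 gRNA 1 and 2). Salmon estimates may have been rounded before division.

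The tables held 38145 rows and 35979 symbols, and rows of the 1149 repeated symbols were summed. Genes with a mean of at least 20 were kept, of which 35 were listed at 0 in a library compared. A pseudocount of 1 entered each ratio, and no test stood behind the 2-fold counts. Near the threshold, 114 lower and 150 higher genes lay between 2 and 2.2-fold, and 151 and 212 between 1.8 and 2-fold. A fold for a gene at 0 is a bound against 3 reads in that library.

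Named genes are the OCT list, the 15 genes furthest below and above among those reaching 100 in the higher library (symbols that only name a clone left out), and for each of the 43 lists the 3 largest ratios and the most abundant member; others were named after their values were seen, and some members are not reported here. The members and lists were chosen with earlier results of these data known. Positions come from GENCODE release 29 (GRCh38) and promoters from RefSeq.

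As an alternative, edgeR 4.0.16 was run on the recovered reads (quasi-likelihood test, TMM, 3 groups, R 4.3.3), after being tested on simulated data; the COLCA2 pair gives it 1 residual degree of freedom. Other alternatives were scalings, pseudocounts, minimums, values per row and a 4-fold threshold. Other work used Python 3.11.15, pandas 2.3.3 and scipy 1.17.1.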

Additional observations from a re-analysis of the deposited data

How the results depend on the processing

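No library of the POU2F3 gRNA or non-targeting group could be left out, since each held 1, and how much a second culture would move any value is not known. No paired analysis was possible because the POU2F3 gRNA and non-targeting groups share fewer than 2 replicate numbers. The log2 ratio of POU2F3 stayed between -3.37 and -3.32 over its alternatives. Without a minimum, 1639 genes were lower and 2551 higher and 4668 lay apart between the COLCA2 guides, since genes of few reads came in. A minimum mean of 100 made these counts 233, 631 and 54, and a pseudocount of 10 left 205 genes apart between the guides. At 4-fold, 113 genes were lower and 365 higher, and the octamer share of lower genes with a window was 8.64% in place of 5.25%, which cannot be compared because too few of these genes had a window. Leaving out a COLCA2 library from the minimum gave 461 to 462 lower and 981 to 989 higher genes. The edgeR test gave 595 lower and 1263 higher genes, and 972 of its 1858 calls were among the genes at least 2-fold apart; it borrows the spread of the COLCA2 pair and compares libraries, not conditions. Scaling moved the share of higher genes among those 2-fold apart between 66.0% and 69.7%, against 68.8%, and the median of all genes between -0.040 and 0.0077. Of the alternative ratios of the OCT genes and the 30 genes furthest from the control, 171 stayed inside the counting interval and 9, all with a pseudocount of 10, lay nearer to 0. This leaves out AMMECR1L, MPP7, ADH1C and ZBTB47, which are listed at 0 in a library and whose ratio follows the pseudocount, such as -10.89 at 0.1 against -7.58 for AMMECR1L. None of these ratios changed sign. The medians of the 43 lists were each taken under several alternatives. Of these alternative medians 270 stayed within the SD between the COLCA2 guides and 74 moved by more. That SD comes from only 2 libraries, so it is a rough measure.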

Other observations

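Detoxification genes regulated by NRF2 were higher in part with POU2F3 gRNA. Of 16 genes 15 passed the minimum, 7 were at least 2-fold higher and 1 lower, with a median log2 ratio of 0.69. The aldo-keto reductase AKR1C2 had 85.9, 718, 1714 and 2028, ALDH3A1, an aldehyde dehydrogenase of squamous epithelium, had 30.6, 368, 603 and 759, and NQO1, a quinone reductase, had 889, 2734, 3202 and 3327. The glutathione synthesis genes stayed within 2-fold, with GCLC at 1504, 1376, 1394 and 1699 and GCLM at 930.1, 1332, 1589 and 2043. PIR, an iron-binding nuclear protein, was the lower member, with 2024, 758, 1013 and 854.

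Among airway secretory and ciliated markers 10 of 16 passed the minimum, 5 were higher and 0 lower. MUC1 had 188, 571, 571 and 701, FOXJ1, the factor of ciliated cells, had 43.0, 180.5, 196 and 226, and the secretoglobin gene SCGB1A1, which defines club cells, was at 0 in all 4 libraries. Of the sodium channel and FGF homologue list 13 of 15 passed and 2 were lower, FGF12 and SCN3A, a neuronal channel subunit with 441, 49.5, 52.9 and 34.1. Of the glycolysis and hypoxia list 15 of 16 passed and 2 were higher, ADM with 265, 980.4, 1239 and 1450 and NDRG1 with 123, 365, 286 and 273, while LDHA had 13992, 14179, 18130 and 17754. Of the ATF4 list 15 of 16 passed, 1 was higher and 0 lower, and the median was -0.11. For comparison, 6.73% of all genes were higher and 3.05% lower.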
